A study of Mus musculus with 4 samples.

Results

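Menin, the product of Men1, and the methyltransferase complex that it shares with MLL1 and MLL2 were measured on 4 single-colour arrays labelled as Neuro2a (N2a) cells, a line of mouse neuroblastoma. The cells, grown in DMEM with fetal bovine serum, had received scramble siRNA (labelled control, 2 arrays) or Men1 siRNA (labelled Men1 knockdown, 2 arrays). The members are 10 genes chosen by name: Men1, Kmt2a, Kmt2b, Ash2l, Wdr5, Rbbp5, Dpy30, Psip1, Hcfc1 and Jund. All 10 are on the array, as 20 of its 44170 targets and 10 of its 24172 named genes. A target is a set of 3 probes designed against 1 deposited mouse transcript, and each is described here on its own. The labels give no time after transfection, siRNA dose or siRNA sequence, and do not say whether replicates came from separate cultures. The p-values therefore reflect array-to-array spread alone, which could be technical in origin.

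Menin is a scaffold protein that holds the N-terminus of MLL1 (gene Kmt2a) or MLL2 (gene Kmt2b), enzymes that methylate lysine 4 of histone H3 at promoters. WDR5, RBBP5, ASH2L and DPY30 form the core that these enzymes need for full activity. LEDGF, encoded by Psip1, binds menin and MLL1 together and ties them to chromatin, and HCF-1, encoded by Hcfc1, is a cofactor found in the same complex. JunD, a transcription factor of the AP-1 family, binds the same pocket of menin as MLL1 and is repressed by it. MEN1 is a tumour suppressor gene of human endocrine tissues.

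The 4 arrays had medians of 145.9 to 151.2 intensity units, and random-sequence control probes read 42.8 to 52.3. Arrays of the same group correlated across targets with r = 0.948 (scramble siRNA) and 0.945 (Men1 siRNA), and arrays of different groups with r from 0.901 to 0.934. Targets are not independent of each other. The image names stored with both Men1 siRNA arrays carry the number 2, and the replicate numbers used here are those of the labels. Of 13 measured neuroblast markers, 8 read 100 or more on all arrays, the level taken here as above background. Markers of other cell types were also read. Summed over 7 epithelial markers, the intensity was 25031 and 16821 on scramble siRNA replicates 1 and 2, against 866 and 1863 on Men1 siRNA replicates 1 and 2. At 100 or more were 7 of the 7 on both scramble siRNA arrays and 4 of the 7 on both Men1 siRNA arrays. Over 10 fibroblast markers the sum was 61990 and 57318 against 9617 and 9335. Over 8 forebrain markers it was 12661 and 19979 against 25611 and 23584, over 5 blood and globin markers 26926 and 14094 against 33853 and 40044, and over 7 glial markers 4619 and 5441 against 5694 and 5225. The last 2 sums join genes that went opposite ways. Most of the blood sum is Hba-a1 and Hbb-b1, which were higher with Men1 siRNA, whereas Cd14 read 723 and 803.9 against 168.1 and 156.6. In the glial sum, Sox10 read 2429 and 2803 against 972.6 and 1407, and Olig2 1233 and 1317 against 3318 and 2309. That N2a cells were the sole source of this RNA was not tested, and each comparison of Men1 siRNA with scramble siRNA below is one of these arrays as labelled.

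No member target passed the test. Of the 20 targets, 0 had an adjusted p under 0.05 in limma, with adjusted p-values from 0.336 to 0.991. The same test called 0.34% of all 44170 targets, 0.0272% higher and 0.312% lower with Men1 siRNA. A value after ± is the SE of a log2 change from limma (n = 2 arrays per group). At an unadjusted p under 0.05 there was 1 member target, the brighter one of Men1, where 13.6% of all targets reached that level (6.16% higher, 7.41% lower, and 14% of the targets at 100 or more on all arrays). The members had a median log2 change of −0.04 and all targets one of 0.06. All 20 changes were under 1 log2 unit in size, whereas the smallest change that passed the test anywhere on the array was 2.68 in size. Each log2 change carried an SE of 0.32 to 0.46, and 19 of the 20 intervals at 95% include 0.

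**Figure D1:**
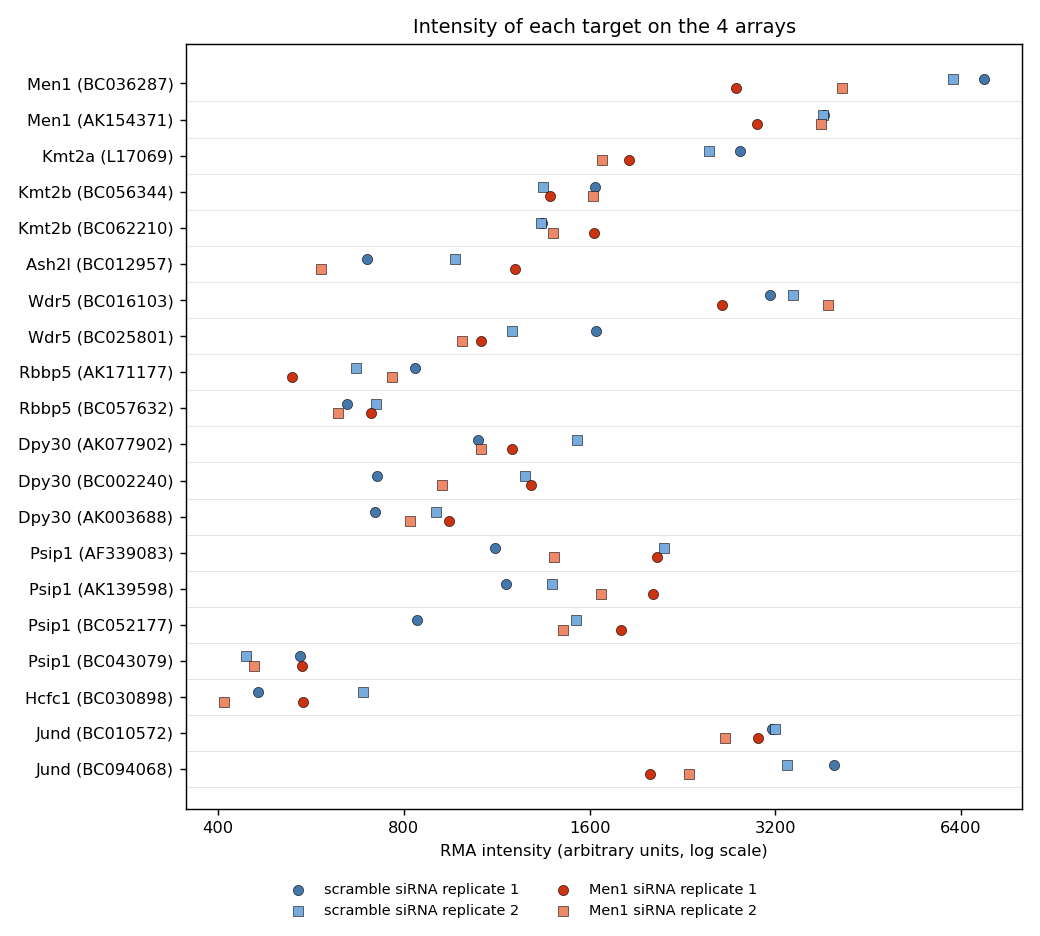
Intensity of the 20 targets of the 10 members on each array, on a log axis; each point is 1 array, blue for scramble siRNA and red for Men1 siRNA, with circles for replicate 1 and squares for replicate 2. The brighter Men1 target, Kmt2a and the second Jund target show both red points well to the left of both blue points, while for 12 targets the colours overlap.

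Men1 itself, the gene that the siRNA was directed against, read lower at each of its targets. The brighter target (BC036287, gene ID 17283, chromosome 19, 6335113 to 6340885 on mouse build MM9) was designed on a transcript annotated as holding the complete coding sequence. Its intensity was 6985 and 6222 on scramble siRNA replicates 1 and 2 against 2764 and 4109 on Men1 siRNA replicates 1 and 2, and values are given in that order from here on. The groups are apart by more than the gap between the arrays of either group. The Men1 siRNA level was 51.1% of the scramble siRNA level, with a 95% interval of the ratio from 0.276 to 0.946 in limma. As a log2 change this is −0.97 ± 0.36 (adjusted p = 0.336, unadjusted p = 0.037). Of all targets, 8.45% had a change as low or lower. In such bulk RNA, fewer cells of a type and less RNA per cell cannot be told apart.

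The other Men1 target (AK154371, 6335020 to 6340885) spans nearly the same interval and had a smaller difference. It read 3843 and 3824 against 2989 and 3802. The groups do not overlap, but only Men1 siRNA replicate 1 lies clearly below the rest. The level was 87.9% of that with scramble siRNA, a log2 change of −0.19 ± 0.33 (limma adjusted p = 0.842). The difference between the changes of the 2 targets was tested directly and was −0.78 ± 0.43 (95% interval −1.81 to 0.25; limma adjusted p = 0.624, unadjusted p = 0.114). The arrays therefore do not show that the targets differ, nor do they give a single size for the difference in Men1 RNA. On the arrays left after Men1 siRNA replicate 1 was set aside, the brighter target had −0.68 and the other target −0.01. Both Men1 targets had the same order of arrays, highest in scramble siRNA replicate 1 and lowest in Men1 siRNA replicate 1, as did 1 Jund target and no other member. That order was found at 6.19% of all targets. The summed epithelial markers had it too, and their part in the result for Men1 was not tested.

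Of the genes for the methyltransferases, Kmt2a (MLL1) was lower and Kmt2b (MLL2) was not, without either passing the test. Whether their changes differ from each other was not tested. Kmt2a has 1 target (L17069, gene ID 214162, named Mll1 in the files; chromosome 9, 44611437 to 44689357), from a transcript with a partial coding sequence. It read 2807 and 2502 against 1855 and 1676. The higher of the Men1 siRNA values lies well under the lower of the scramble siRNA values, and the gap within each group was small. The level was 66.5% of that with scramble siRNA, a log2 change of −0.59 ± 0.33 (limma adjusted p = 0.485; 95% interval −1.38 to 0.21). With each array left out in turn it was −0.67 to −0.51.

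Kmt2b (gene ID 75410, named Wbp7 in the files, chromosome 7) has 2 targets, both from transcripts with partial coding sequences. The files list Mll2 as an older name of Wbp7, but their targets with Mll2 as main symbol belong to another gene, Kmt2d on chromosome 15, and are not counted here. The target BC056344 (31353873 to 31372048) read 1634 and 1346 against 1382 and 1621, a log2 change of 0.01 ± 0.34 (adjusted p = 0.991). Its groups overlap completely. The target BC062210 (31353873 to 31360643), over the same end of the gene, read 1338 and 1335 against 1624 and 1393. Here the Men1 siRNA arrays were the higher ones, with a log2 change of 0.17 ± 0.33 (adjusted p = 0.852). The change at BC056344 minus that at BC062210 was −0.16 (95% interval −1.23 to 0.92; adjusted p = 0.946).

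Jund, the AP-1 gene whose product binds menin, was lower at each of its targets. Its target BC094068 (gene ID 16478, chromosome 8, 73222856 to 73224515; complete coding sequence) read 3990 and 3348 against 2004 and 2322. The groups do not overlap, and the gap between them exceeds the gap within either. The level was 59% of that with scramble siRNA, and the log2 change was −0.76 ± 0.33 (limma adjusted p = 0.394, unadjusted p = 0.0626; 95% interval −1.58 to 0.05). The target BC010572, which starts 8 bases further in and ends at the same base, read 3162 and 3201 against 3000 and 2655. Those groups also do not overlap, at 88.7% of the scramble siRNA level (log2 change −0.17 ± 0.32; adjusted p = 0.848). The brighter of the targets had the smaller change, and their difference of 0.59 ± 0.44 did not pass (95% interval −0.48 to 1.65; adjusted p = 0.72).

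Men1, Kmt2a and Jund were thus the members with both Men1 siRNA arrays below both scramble siRNA arrays at each of their targets. Over all members this was so for 6 of 20 targets, the sixth being 1 target of Wdr5, and the reverse for 2 of 20. On the whole array the groups did not overlap for 46.6% of targets, 21.3% with Men1 siRNA lower and 25.3% with it higher. Of the targets at 100 or more on all arrays, 24.4% were lower and 29.8% higher in this way. Without Men1, the other 9 genes had 9 targets with a negative and 9 with a positive change, a median of −0.01 and a range from −0.76 to 0.53.

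**Figure D2:**
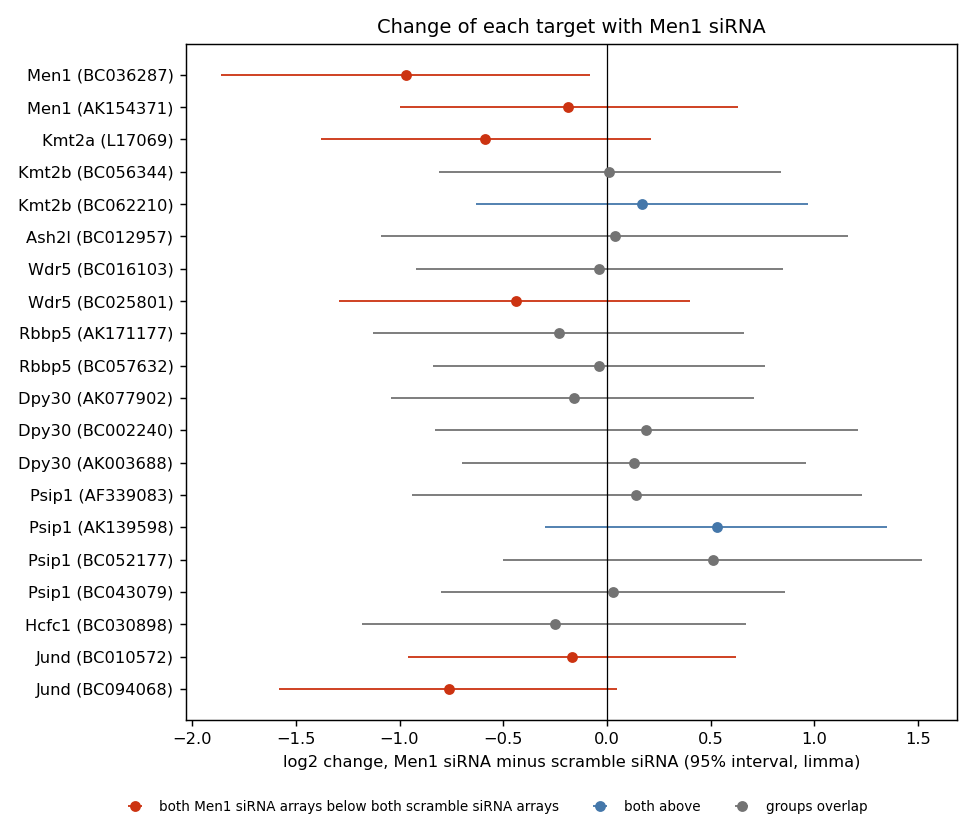
Log2 change of each target, Men1 siRNA minus scramble siRNA, with its 95% interval from limma (n = 2 arrays per group); red marks targets whose Men1 siRNA arrays both lie below the scramble siRNA arrays, blue both above and grey overlapping groups. The brighter Men1 target, at −0.97 with an interval from −1.86 to −0.08, has the only interval that stays on 1 side of 0, and it is not adjusted for the number of targets.

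The sequence upstream of the start of these 3 genes is shown because Men1 siRNA read lower at each of their targets, none of which passed. Such a lower reading without overlap was found at 6 of 20 member targets and at 24.4% of targets at 100 or more on all arrays. Whether the 3 genes changed together was not tested. Each line holds the 250 bases before the RefSeq start of the gene on build GRCm38.p6, 5′ to 3′ on the gene's strand. Where a gene has several promoter entries, the most upstream one was used. The Men1 window lies at chr19:6334729-6334978 on the plus strand, Kmt2a at chr9:44881290-44881539 on the minus strand and Jund at chr8:70697489-70697738 on the plus strand. Capitals mark CCAAT (the CCAAT box) and GGGCGG (the GC box) on either strand, and no marked motif overlaps another. The motifs CCGGAAG (bound by ETS factors) and TGANTCA (bound by AP-1) were marked in the same way and occur in none of the lines.
Men1: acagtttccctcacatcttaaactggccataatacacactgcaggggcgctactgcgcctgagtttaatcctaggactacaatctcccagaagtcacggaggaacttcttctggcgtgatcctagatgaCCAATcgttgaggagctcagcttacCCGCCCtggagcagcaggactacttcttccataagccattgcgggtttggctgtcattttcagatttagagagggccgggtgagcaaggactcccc
Kmt2a: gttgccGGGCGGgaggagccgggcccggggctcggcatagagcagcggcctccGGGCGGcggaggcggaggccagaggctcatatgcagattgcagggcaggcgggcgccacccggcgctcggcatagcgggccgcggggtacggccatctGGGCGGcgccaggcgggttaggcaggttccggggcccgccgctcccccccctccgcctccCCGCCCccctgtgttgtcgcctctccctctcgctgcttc
Jund: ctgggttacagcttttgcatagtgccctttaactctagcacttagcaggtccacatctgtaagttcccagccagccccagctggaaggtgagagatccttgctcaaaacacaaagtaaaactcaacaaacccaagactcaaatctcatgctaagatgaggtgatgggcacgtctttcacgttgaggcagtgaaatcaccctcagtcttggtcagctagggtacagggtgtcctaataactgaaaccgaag

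Men1 holds 1 CCAAT box and 1 GC box, Kmt2a holds 4 GC boxes, and the Jund window holds none of the motifs searched. Of 27025 genes with such a window, 34.5% have the CCAAT box, 33% the GC box, 7.07% the ETS motif and 6.85% the AP-1 motif. The TATA box, TATAAA, in 13% of windows, and the CRE motif, TGACGTCA, in 1.6%, were searched as well and are in none of the 3. The windows differ in base composition, with 29 CpG in Kmt2a, 8 in Men1 and 3 in Jund, where the median of all windows is 6. These matches are a description of the windows alone. Sequence outside them, including any other start of a gene, was not searched, so a motif absent here may be present elsewhere in the promoter.

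Menin binds MLL1 at the first residues of the protein, and the coding start of Kmt2a lies within the RefSeq promoter entry. In the line below (chr9:44881240-44881274, minus strand, GRCm38.p6) the capitals mark, a few codons after the start codon, the bases that begin the menin-binding motif known from MLL1.
Kmt2a coding start: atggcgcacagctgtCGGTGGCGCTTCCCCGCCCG

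Wdr5 and Rbbp5, the WD-repeat subunits of the core, had no target that passed, and the groups overlap at 3 of their 4 targets. Wdr5 (gene ID 140858, chromosome 2) encodes the subunit that holds a short motif of MLL proteins. Its target BC016103 (27370731 to 27390831) read 3141 and 3420 against 2622 and 3895, so that the Men1 siRNA arrays enclose the scramble siRNA arrays. The log2 change was −0.04 ± 0.36 (limma adjusted p = 0.976). Its target BC025801 (27370693 to 27392055) read 1636 and 1197 against 1066 and 994.4, with no overlap and a log2 change of −0.44 ± 0.35 (adjusted p = 0.615). Rbbp5 (gene ID 213464, chromosome 1, 134373956 to 134401465) encodes the subunit that joins WDR5 to ASH2L. It read 833.3 and 669.2 against 526 and 765.4 at AK171177, and 648.2 and 721.4 against 706.4 and 625.6 at BC057632. The groups overlap at both targets, with log2 changes of −0.23 ± 0.37 and −0.04 ± 0.33 (adjusted p = 0.814 and 0.969).

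Ash2l and Dpy30 encode the subunits that act together on the activity of the enzyme. Ash2l (BC012957, gene ID 23808, chromosome 8, 26926672 to 26951235) read 697.4 and 969.5 against 1212 and 586.8. The highest and the lowest value are both Men1 siRNA arrays, 1.05 log2 units apart, the widest gap within a group of any member target. Its log2 change was 0.04 ± 0.46 (adjusted p = 0.981; 95% interval −1.09 to 1.16). With each array left out in turn it ran from −0.49 to 0.56.

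Dpy30 (gene ID 66310, chromosome 17, 74698819 to 74715761) has 3 targets, all with overlapping groups. AK077902 read 1055 and 1525 against 1200 and 1068. BC002240 read 723.3 and 1259 against 1285 and 921, and AK003688 read 719.6 and 901.3 against 946.9 and 819.5. Scramble siRNA replicate 1 was the lowest of the 4 arrays at each of them. Log2 changes were −0.16 ± 0.36, 0.19 ± 0.42 and 0.13 ± 0.34 (limma adjusted p = 0.873, 0.874 and 0.896), so neither a direction nor a difference between targets can be given for Dpy30.

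Psip1 and Hcfc1 encode the chromatin tether and the cofactor. Psip1 (gene ID 101739, chromosome 4, 83101584 to 83132355) gives a long and a short form of LEDGF by alternative 3′ exons and has 4 targets, with changes of 0.03 to 0.53. The sign at AF339083 and BC043079 did not hold, as it turned with single arrays left out (to −0.31 and −0.12 at the lowest) and, at BC043079, under cyclic loess (−0.01). AK139598 read 1170 and 1392 against 2025 and 1673. Both Men1 siRNA arrays were the higher ones, with a log2 change of 0.53 ± 0.34 (adjusted p = 0.54; 95% interval −0.30 to 1.35). BC052177 read 841.5 and 1523 against 1799 and 1451, a log2 change of 0.51 ± 0.41 (adjusted p = 0.625). Its groups overlap, and scramble siRNA replicate 1 stands lowest. AF339083, named in the files for the b form of LEDGF, read 1124 and 2113 against 2061 and 1400 (log2 change 0.14 ± 0.44; adjusted p = 0.915). BC043079, which extends furthest at the low-coordinate end of the gene, read 542.5 and 443 against 546.9 and 456.5. That is a log2 change of 0.03 ± 0.34 (adjusted p = 0.981). Against the brightest target, AF339083, the other 3 gave differences in change (AF339083 minus the other) from −0.39 to 0.11, and none passed (limma adjusted p from 0.83 to 0.969).

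Hcfc1 (BC030898, gene ID 15161, chromosome X, 71188133 to 71196040) has 1 target, on a transcript that the files describe as having an apparent retained intron. It read 464.4 and 686.3 against 548.4 and 408.9, with overlapping groups and a log2 change of −0.25 ± 0.38 (adjusted p = 0.804). Over all members with more than 1 target, 10 pairs of targets were compared for their change. None passed in limma, and 0 were at an unadjusted p under 0.05, against 9.4% of the 19998 pairs on the array, of which 0% passed after adjustment.

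The arrays of a group stood apart at many member targets by more than the groups did. The gap within at least 1 group was larger than the difference between the groups at 16 of 20 targets, the second Men1 target among them. The other 4 are the brighter Men1 target, Kmt2a, AK139598 of Psip1 and BC094068 of Jund. At 10 of 20 targets scramble siRNA replicate 2 was above replicate 1 while Men1 siRNA replicate 1 was above replicate 2. These are Ash2l, Hcfc1, all 3 Dpy30 targets, 3 of the 4 Psip1 targets, 1 of Rbbp5 and 1 of Jund. On the whole array 31.7% of targets did so, and 36.6% of the 20620 that read 100 or more on all arrays, as all 20 member targets do. Across the 20 targets the gap within the scramble siRNA group and the gap within the Men1 siRNA group, each as replicate 2 minus replicate 1, correlated with r = −0.61. The targets share their 4 arrays, and several share a gene. The sign depends on the numbering: the authors' value table exchanges the scramble siRNA arrays, and with those numbers r is 0.61 and the count of 10 becomes 4. At AF339083 of Psip1 the scramble siRNA arrays were 0.91 log2 units apart and the groups 0.14.

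**Figure D3:**
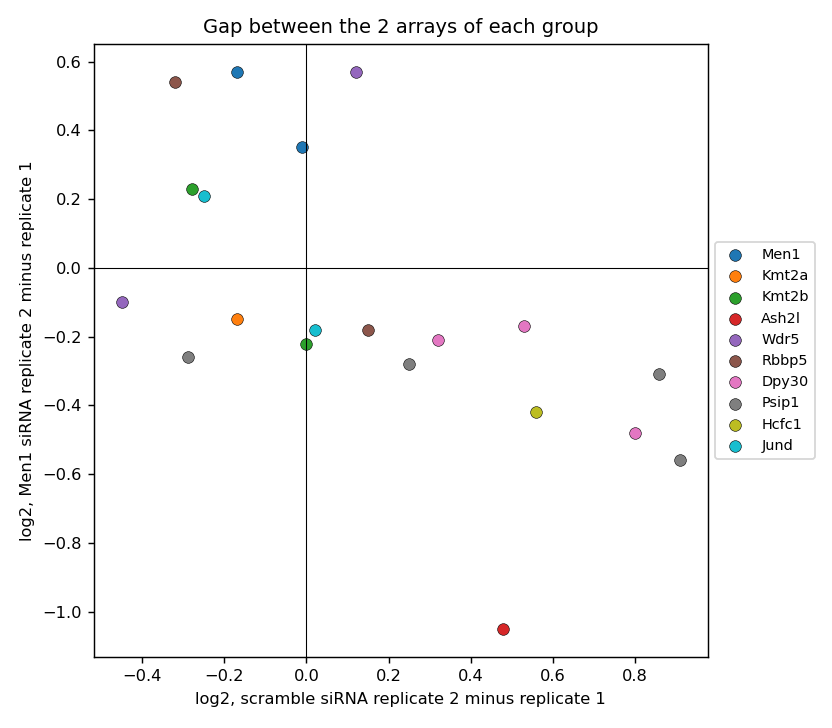
Log2 gap between replicate 2 and replicate 1 of the scramble siRNA arrays (horizontal) and of the Men1 siRNA arrays (vertical) for the 20 member targets, coloured by gene, with replicate numbers as labelled (exchanged scramble siRNA numbers mirror the plot left to right). Dpy30, Hcfc1, Ash2l and 3 of the 4 Psip1 targets lie at the lower right, with Ash2l lowest at −1.05, whereas both Men1 targets lie in the upper part, at 0.57 and 0.35.

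The genes whose 4 values were most like those of the brighter Men1 target were sought among 10894 other genes that read 100 or more on all arrays. Likeness was the Euclidean distance over the 4 log2 values, each centred on its own mean. The nearest were Ss18 (distance 0.03), Scamp2 (0.058), Txndc5 (0.081), Zbtb16 (0.128) and Kyat1 (0.131). Ss18, which encodes a subunit of the BAF chromatin remodelling complex, read 803.6, 731.1, 320.7 and 469.6, a log2 change of −0.98. Among the other members, at their brightest targets, Kmt2a was nearest to Men1 (0.63), followed by Rbbp5 (0.74), and Ash2l was farthest (1.59). This ranking leaves out the other targets of members, among them BC094068 of Jund, which has the same order of arrays as Men1. With 4 arrays many genes can share a profile, so this is a description with no test.

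Lists of genes around the complex were taken at the brightest target of each gene, adjusted over all targets. Of all 24172 genes at that target, 0.372% were lower and 0.0372% higher by the test, 14% were at an unadjusted p under 0.05 (7.68% lower, 6.28% higher), and the median log2 change was 0.06. Signs were not counted over all genes, so the counts above or below 0 have no such share beside them. Over all targets, 46.8% had a change as low as the 0.01 of BC056344 of Kmt2b or lower. Of 13 measured other subunits of the SET1 and MLL complexes 0 passed in limma, with 1 at an unadjusted p under 0.05, 8 above 0 and a median of 0.05. Kmt2d, the methyltransferase gene of a related complex without menin, read 2016 and 1876 against 852.4 and 582.9. Its log2 change was −1.46 ± 0.36 (adjusted p = 0.202), but its other 3 targets ran from −1.65 to 0.22. Kdm6a, the demethylase gene of that complex, had −0.86 ± 0.38 (adjusted p = 0.396), while its other targets ran from −0.99 to 0.64. Wdr82, of the SET1 complexes, had 0.59 ± 0.35 (adjusted p = 0.512).

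Of 13 partners of MLL fusions and elongation factors, 0 passed in limma, with 1 at an unadjusted p under 0.05 and a median of −0.30. The lowest p was that of Mllt10, which encodes the fusion partner AF10, with 1830 and 1630 against 884.8 and 868.7. Its log2 change was −0.98 ± 0.32 (adjusted p = 0.296), and its other 3 targets ran from −0.83 to −0.35. Of 24 reported menin partners outside the complex, 0 passed and 3 were at an unadjusted p under 0.05, with 20 below 0 and a median of −0.30. Whether these signs differ from those of all genes was not tested. Esr1, the estrogen receptor gene, read 588.6 and 677.5 against 157.9 and 118.3. That is a log2 change of −2.21 ± 0.35 (adjusted p = 0.0855), with −2.48 and −1.91 at its other targets. Pparg, the nuclear receptor gene of fat cells, read 68 and 58.7, under 100, against 464.3 and 163.8, and its level with Men1 siRNA was at least 2.76-fold higher (adjusted p = 0.212, not passed). Such a bound sets the mean of the brighter group against 100. Nfkb2, a subunit gene of NF-κB, had −1.3 ± 0.45 (adjusted p = 0.314), with −0.82 to 0.04 at its other targets.

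Of 16 AP-1 partners and relatives of Jund, 0 passed, 1 was at an unadjusted p under 0.05, and 8 were above and 8 below 0. Junb, a close relative of Jund, read 6326 and 2867 against 1286 and 1953, a log2 change of −1.43 ± 0.49 (limma adjusted p = 0.31). Its 2 scramble siRNA arrays differ more from each other than the lower of them from the higher Men1 siRNA array. Fosl2, a Fos family gene, had −0.98 ± 0.4 (adjusted p = 0.373) and −1.06 at its other target. Jun, the founding member of the family, had −0.71 ± 0.34 (adjusted p = 0.424) and 0.14 at its other target. Of 6 paralogs of members, 0 passed and 2 were at an unadjusted p under 0.05, with 4 above 0 and a median of 0.36. Dydc1, which has the domain of DPY30, had the smallest p of them, with 42.1 and 55.2, under 100, against 116.3 and 130.6, at least 1.23-fold higher (adjusted p = 0.21, not passed). Wdr5b, a close copy of Wdr5 without introns, had −0.95 ± 0.38 (adjusted p = 0.355).

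Of 13 genes reported as targets of the menin complex, 1 passed, 7 were at an unadjusted p under 0.05, and 6 were above and 7 below 0, with a median of −0.45. Among those at an unadjusted p under 0.05, Hoxc6 read under 100 on all 4 arrays. Hoxa7 read under 100 on both Men1 siRNA arrays and had 0.46 at its other target. Cdkn1b, also among them, was higher with Men1 siRNA, at 200 and 248.2 against 475.3 and 462.3. Its log2 change was 1.07 ± 0.33 (limma adjusted p = 0.276), with 0.49 at its other target. The gene that passed was Hoxa10, a homeobox gene, which fell from 4170 and 3922 to 129.5 and 132.9 (log2 change −4.95 ± 0.32; limma adjusted p = 0.0254). With any 1 of the 4 arrays left out it no longer passed, as no target then did. Hoxa9, a neighbouring gene of that cluster, read 943.3 and 556.4 against 86.6 and 90.3, the last values under 100, and was at least 7.24-fold lower (adjusted p = 0.0561, not passed). Bdnf, a neurotrophin gene, read 243.2 and 207.9 against 582.6 and 695.4, a log2 change of 1.5 ± 0.33 (adjusted p = 0.173), with −0.43 at its other target. Meis1, which encodes a cofactor of HOX proteins, had −1.16 ± 0.35 (adjusted p = 0.269), with −1.72 to 0.81 at its other targets. Epithelial and fibroblast markers were lower on the Men1 siRNA arrays, with median log2 changes of −4.36 and −3.15, and their part in the values of these lists was not tested.

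**Figure D4:**
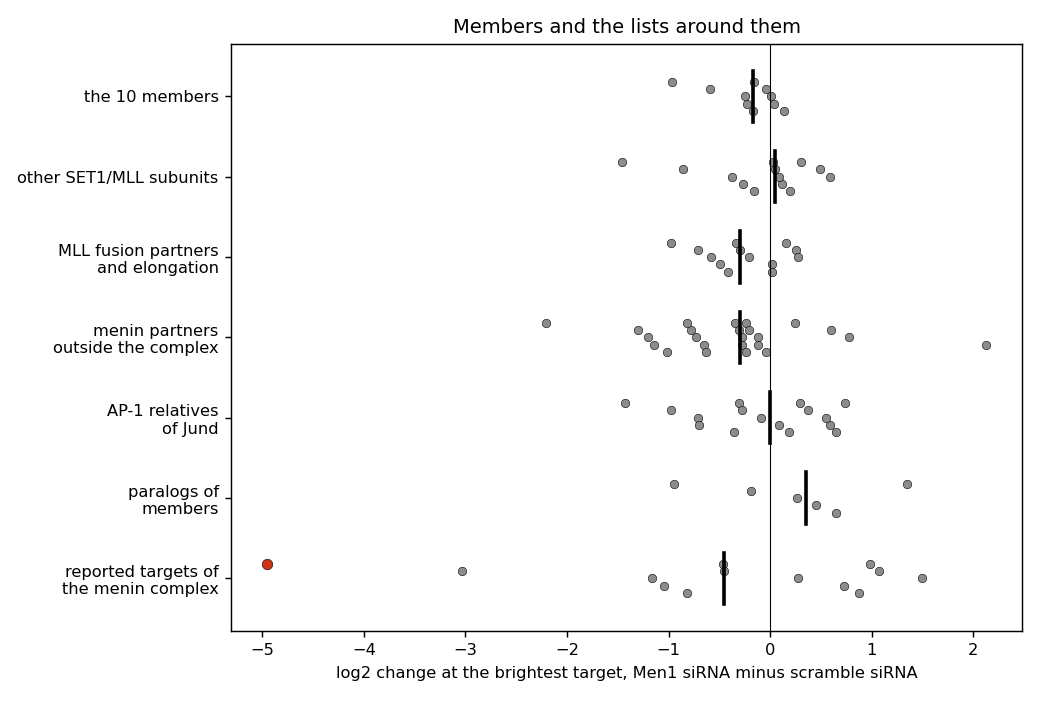
Log2 change at the brightest target of each gene, Men1 siRNA minus scramble siRNA, for the 10 members and 6 lists around them; each point is a gene, the black bar is the median, and red marks an adjusted p under 0.05 in limma. Hoxa10, at −4.95, is the only red point, and the 10 members lie between −0.97 and 0.14.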

How the data were processed

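Each array's deposited file gives 1 linear intensity per target, named by the authors as an RMA (robust multi-array average) value. The labelling protocol and the file format are those of a NimbleGen array, whereas the series text names an Agilent one. The scanner is not given in the sources used here. Per its values, the authors' value table holds only the 20620 targets at 100 or more on all arrays, all 20 member targets among them, with the same intensity (relative tolerance 0.0001) for 20617 and with the 2 scramble siRNA columns exchanged, and served as an alternative. Intensities were log2-transformed without a pseudocount. No array file marks targets above background, so 100 was used as that level. Symbols were updated through gene IDs (21583 of 24204 matched). The fit over all 44170 targets used limma (version 3.58.1; lmFit, then eBayes) under R 4.3.3 with group as its only term, two-sided, with Benjamini-Hochberg adjustment over all targets and a threshold of 0.05. The difference between targets of 1 gene was fitted likewise on log2 differences, over 19998 pairs. Changes are Men1 siRNA minus scramble siRNA. The fits were also run on simulated data with known changes, drawn independently from the fitted spread. Such data cannot show how well the fits suit these arrays, whose targets are not independent of each other. An exact permutation test of 2 against 2 arrays cannot give a p under 0.05, so none was run.

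The members, lists and rules were chosen with earlier results of these data known. The rule names all members, up to 4 genes of the smallest p per list, and the 5 nearest genes to Men1. Cdkn1b, Hoxc6 and Hoxa7 were named besides, as the remaining reported targets at an unadjusted p under 0.05 in limma. Same-numbered arrays deviated from their group means with r = −0.167 across targets, or 0.167 with the scramble siRNA numbers exchanged as in the value table. No label ties a number to a shared culture or day, and the arrays were not paired. Promoters came from RefSeq for 7 of the 10 members. Alternatives were other normalizations, priors, filters, a pseudocount, a replicate block, the value table, a stricter threshold, gene-level values and each array left out. The number of arrays limits the precision. Setd1a was not analysed here, and 1 marker gene is not reported here.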

Additional observations from a re-analysis of the deposited data

How the results depend on the processing

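No member target passed the threshold under any of the alternatives run, and the brighter Men1 target stayed negative, from −1.25 to −0.58, with an adjusted p of 0.0721 to 0.684. It had −1.25 to −0.68 with each array left out in turn and −0.58 as the mean of both targets. At an unadjusted p under 0.05 in limma, member targets numbered 3 with a prior that follows intensity and 0 with the replicate block, against 1 in the report. The 3 were the brighter Men1 target, Kmt2a and BC094068 of Jund. Of all 44170 targets, 6908 were at that level with the intensity prior and 4781 with the block. The number of all targets that passed, 150 with the settings of the report, was 451 with dim targets left out, 387 with a pseudocount of 32, 538 in the value table, 1070 with a prior that follows intensity and 0 at an adjusted p under 0.01. It was 0 to 0 with each array left out, where 3678 to 5799 targets had an unadjusted p under 0.05. Of the 85 listed genes, 1 passed. That count was 3 without dim targets, 3 with the pseudocount, 3 in the value table, 4 with the intensity prior, 0 at an adjusted p under 0.01 and 0 with each array left out. Target pairs went from 0 to 8 with the pseudocount and 16 in the value table, none of them of members.

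With the replicate block the brighter Men1 target had −0.97 ± 0.44 (limma adjusted p = 0.492) and 144 targets passed. Crossed replicate numbers as a block, which are those of the value table, were added after the data were seen and gave 165. The block changed no call of a member.

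Of the 20 member targets, 9 kept their sign under all alternatives run and 11 changed it under at least 1, each of the latter with a change of 0.25 or less in size. Under cyclic loess BC056344 of Kmt2b had −0.05, Ash2l −0.02 and BC043079 of Psip1 −0.01, and under quantile normalization BC057632 of Rbbp5 had 0.01. With each array left out in turn, BC056344 ran from −0.13 to 0.15, Ash2l from −0.49 to 0.56, BC016103 of Wdr5 from −0.32 to 0.25, and Rbbp5 from −0.51 to 0.04 at AK171177 and −0.13 to 0.05 at BC057632. Dpy30 ran from −0.43 to 0.10 at AK077902, −0.21 to 0.59 at BC002240 and −0.03 to 0.29 at AK003688. Psip1 ran from −0.31 to 0.60 at AF339083 and −0.12 to 0.17 at BC043079, and Hcfc1 from −0.54 to 0.03. The cause was not tested.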
